A study of Mus musculus with 12 samples.

Results

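Translin (Tsn), its partner translin-associated factor X (Tsnax, also called Trax) and Disc1, the gene beside Tsnax, were followed in the nucleus accumbens of adult mice whose mothers had been given a viral mimetic. The members are all probe sets of the deposited values whose platform annotation gave exactly 1 gene symbol equal to Tsnax, Tsn or Disc1. There were 4 of them among 35556 in all and 21218 with 1 symbol, namely 2 for Tsnax and 1 each for Tsn and Disc1. In addition, 0 probe sets listed a member among several symbols.

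The samples were 6 arrays of poly(I:C) offspring and 6 arrays of control offspring, all C57BL/6N mice aged 12 weeks. On gestation day 17 mothers had received an intravenous dose of poly(I:C) at 5 mg/kg or of saline (poly(I:C) is a double-stranded RNA made to mimic a virus), and the offspring had gone through behavioural tests before dissection. The accumbens, core and shell together, was dissected from coronal slices and frozen, and 250 ng of total RNA went onto each array. Values are on the log2 scale after RMA, a method that brings arrays to a common distribution, so they are relative levels and say nothing of a change shared by most transcripts. The labels call the arrays biological replicates without naming litters, so p-values take the offspring as independent. In tissue RNA, fewer cells of a type and less RNA per cell cannot be told apart.

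Translin binds single-stranded RNA and DNA. It assembles with Trax, which carries the catalytic residues, into a nuclease called C3PO that, with fly or human proteins, removes the passenger strand of small interfering RNAs and trims transfer RNA precursors in a filamentous fungus. In neurons translin has been linked to the transport of messenger RNAs into dendrites, and in mice that lack translin the Trax protein is lost although its messenger RNA remains. Disc1 encodes a scaffold protein of the centrosome, mitochondria and synapse that was first found at a chromosomal breakpoint in a family with psychiatric illness. In human cells, transcripts that run from TSNAX into DISC1 are known.

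Both Tsnax probe sets stood higher in the poly(I:C) offspring, by 1.25-fold and 1.16-fold. Tsn was 1.16-fold higher in mean with overlapping groups, and Disc1 differed by 1.04-fold, a difference whose interval spans 0. All 4 were higher in mean, as were 50.9% of all probe sets tested. Of the 4, 1 passed the adjusted threshold of 0.05 as higher and 0 as lower, and of all probe sets 0.0283% passed as higher and 0.033% as lower. The 1 that passed, the first of Tsnax, was among 13 that did so in either direction (0.0613%). Tsnax was selected on this difference between the groups, and Tsn and Disc1 were added as its partner and its neighbour. The values of all 4 are therefore given as a description, and nothing is read from their number.

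The first Tsnax probe set (10576532) read 6.87, 6.94, 6.99, 7.05, 6.92 and 6.91 in poly(I:C) offspring 1 to 6, and 6.75, 6.69, 6.72, 6.47, 6.62 and 6.54 in control offspring 1 to 6. Every poly(I:C) array lay above every control array, with controls 4 and 6 the lowest. Groups did not overlap, with poly(I:C) higher, for 0.603% of all probe sets tested. The group means were 6.95 ± 0.06 in poly(I:C) offspring and 6.63 ± 0.11 in controls (SD, n = 6 arrays each), a log2 difference of 0.32 with a 95% interval from 0.21 to 0.42 (limma adjusted p = 0.0433, the value on which the gene was selected). By unadjusted p it stood at rank 10 of 21218, and 1.25% of probe sets had a larger difference in either direction.

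The second Tsnax probe set (10606912) read 6.21, 6.48, 6.46, 6.29, 6.35 and 6.23 in poly(I:C) offspring 1 to 6, and 6.19, 6.16, 6.13, 6.12, 6.17 and 5.99 in control offspring 1 to 6. The groups again did not overlap, but poly(I:C) 1 lay only just above control 1. The means were 6.34 ± 0.12 in poly(I:C) offspring and 6.13 ± 0.07 in controls, a log2 difference of 0.21 with a 95% interval from 0.10 to 0.33. This did not pass the adjusted threshold (limma adjusted p = 0.131, unadjusted p = 0.00149).

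**Figure D1:**
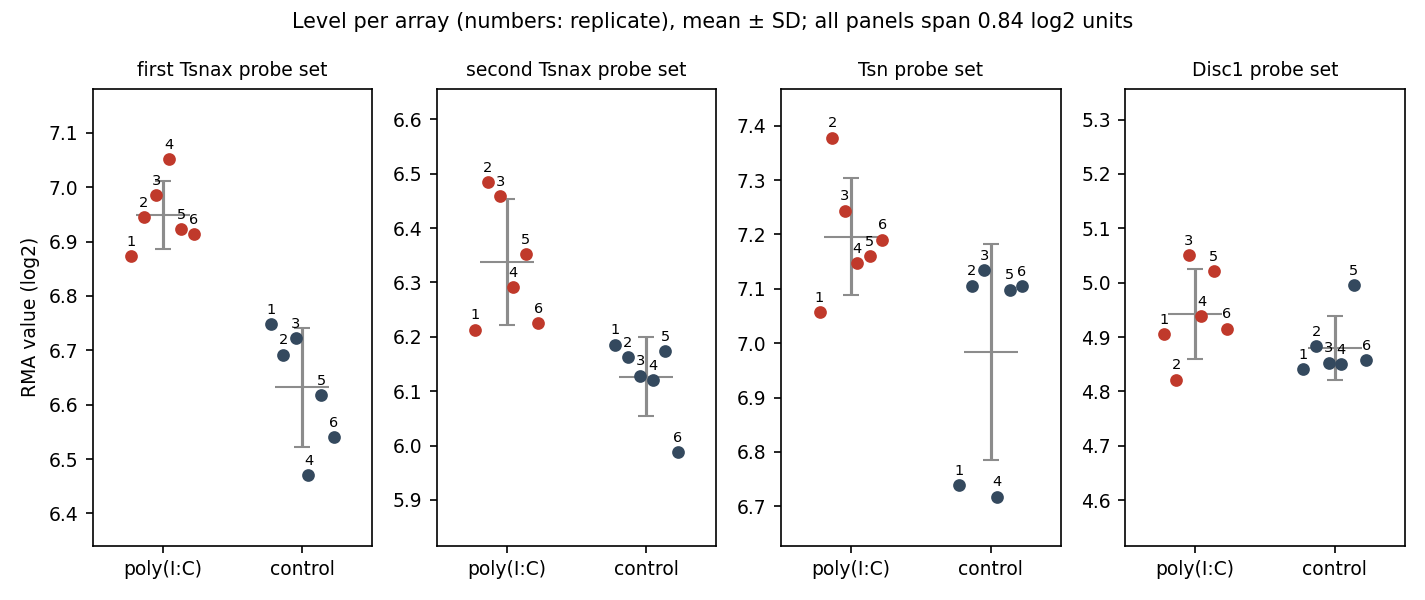
Log2 RMA value of each member probe set per array, with poly(I:C) offspring in red on the left and control offspring in blue on the right of each panel, replicate numbers above the points, and grey bars for mean ± SD over 6 arrays. Both Tsnax panels show 6 poly(I:C) points above 6 control points, the Tsn panel shows controls 1 and 4 far below the rest, and the Disc1 groups overlap.

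The annotation gives both Tsnax probe sets the same gene identifier and the same accessions, yet their identifiers lie far apart. The 10 nearest named probe sets around the first, which is listed between Sprtn and Disc1, all belong to chromosome 8, where RefSeq (GRCm38.p6) places Tsnax. Those around the second, listed between Slc25a53 and Esx1, belong in 10 of 10 cases to chromosome X. Over all named probe sets, 90.6% of neighbouring identifiers belong to 1 chromosome. Which transcript the probes of the second set match is not given in the sources used here, and a near-identical copy of Tsnax elsewhere in the genome was not tested.

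Agreement of the Tsnax probe sets was checked within each group, where the exposure plays no part. Among the 6 poly(I:C) arrays Pearson's r was 0.33 (exact permutation p = 0.528) and Spearman's rho 0.60 (exact permutation p = 0.242). Among the 6 control arrays r was 0.56 (exact permutation p = 0.251) and rho 0.71 (exact permutation p = 0.136). Adjusted over the 12 relations between member probe sets, these r had p-values of 0.827 each by exact permutation. Without the 2 arrays farthest from the median of the first probe set, r was 0.77 in poly(I:C) offspring and -0.13 in controls. The sign in controls was thus not stable, but r over the 4 arrays left in a group, with a narrowed range, is imprecise.

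With group means taken off, r between the Tsnax probe sets over the 12 arrays was 0.40. Among all 1110 genes with exactly 2 probe sets the median of this r was 0.35, and 46.8% had a higher one. Among the 664 of them with a mean level above the median of all tested probe sets, Tsnax included, the median was 0.54. Of these 664, 59.2% had a higher r than Tsnax.

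The gap between the Tsnax probe sets, taken per array, was 0.61 ± 0.11 in poly(I:C) offspring and 0.51 ± 0.09 in controls (SD, n = 6 each). It differed by 0.11 between the groups, which is given with no test because the first probe set was selected on its difference. Averaged into 1 value per gene, the Tsnax probe sets gave a log2 difference of 0.26 (limma adjusted p = 0.0572).

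**Figure D2:**
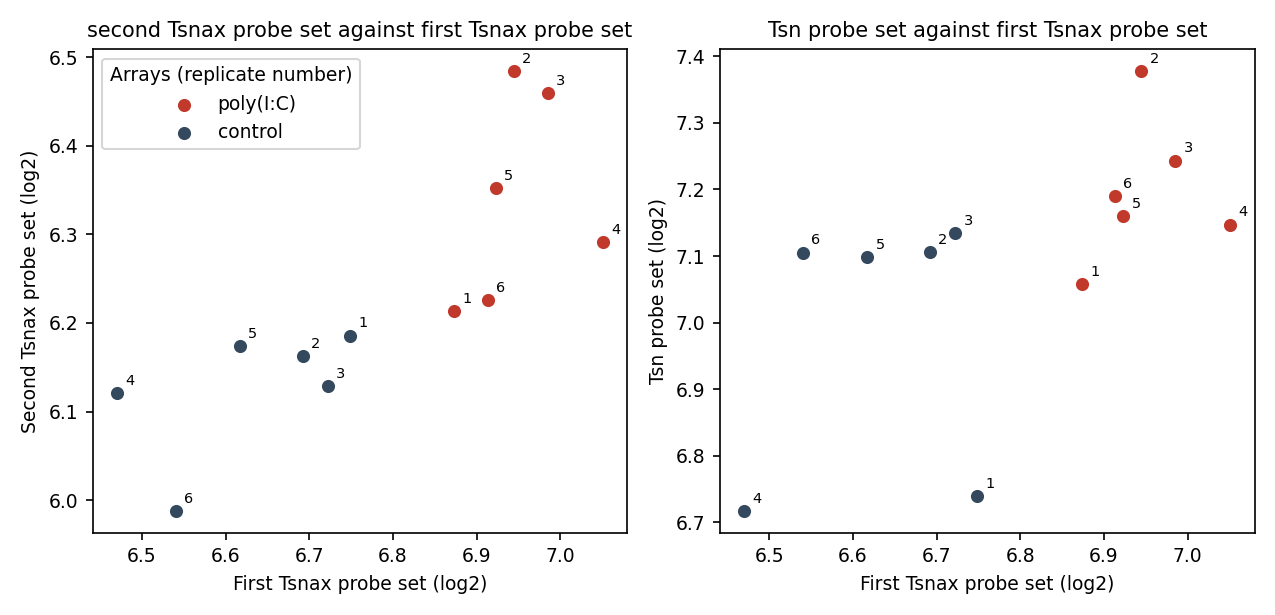
The second Tsnax probe set (left) and the Tsn probe set (right) against the first Tsnax probe set, in log2 units, 1 point per array with its replicate number (poly(I:C) red, control blue). On the left the groups separate on both axes. On the right they separate fully along the Tsnax axis only, with controls 1 and 4 at the bottom. There poly(I:C) 1 is the only poly(I:C) array below any control on the Tsn axis.

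Tsn (10357124), which encodes translin itself, read 7.06, 7.38, 7.24, 7.15, 7.16 and 7.19 in poly(I:C) offspring 1 to 6, and 6.74, 7.11, 7.13, 6.72, 7.10 and 7.11 in control offspring 1 to 6. Controls 1 and 4 stood apart at the low end. The other 4 controls lay above poly(I:C) 1 and below every other poly(I:C) array, so the overlap rests on poly(I:C) 1. The medians were 7.18 in poly(I:C) offspring and 7.10 in controls, closer together than the means of 7.20 ± 0.11 in poly(I:C) offspring and 6.98 ± 0.20 in controls. The log2 difference of 0.21 had a 95% interval from 0.04 to 0.39 and did not pass the adjusted threshold (limma adjusted p = 0.267, unadjusted p = 0.0214). An unadjusted p under 0.05 with poly(I:C) higher was reached by 7.83% of all probe sets.

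Disc1 (10576538) read 4.91, 4.82, 5.05, 4.94, 5.02 and 4.92 in poly(I:C) offspring 1 to 6, and 4.84, 4.88, 4.85, 4.85, 5.00 and 4.86 in control offspring 1 to 6. The groups overlapped at both ends, since the lowest array of all was poly(I:C) 2 and control 5 exceeded 4 of the 6 poly(I:C) arrays. The means were 4.94 ± 0.08 in poly(I:C) offspring and 4.88 ± 0.06 in controls, a log2 difference of 0.06 with a 95% interval from -0.03 to 0.16 (limma adjusted p = 0.538). As a fold, this interval runs from 0.979 to 1.11. Averaged over both groups, Disc1 stood at 4.91. This is less than 5.47, the middle value among the 21218 probe sets with 1 symbol. It is more than the median of any array, since the array medians ran from 4.78 to 4.85. RMA compresses differences at low levels, but whether it did so for Disc1 was not tested.

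Within groups, 0 of the 12 relations between member probe sets passed the threshold after adjustment (exact permutation, with 1 at an unadjusted p under 0.05). For the first Tsnax probe set and Tsn, r was 0.22 among poly(I:C) arrays (exact permutation p = 0.676, rho 0.31 with p = 0.564) and 0.21 among controls (exact permutation p = 0.668, rho 0.37 with p = 0.497). For the first Tsnax probe set and Disc1, r was 0.22 among poly(I:C) arrays (exact permutation p = 0.689, rho 0.43 with p = 0.419) and -0.05 among controls (exact permutation p = 0.943, rho -0.26 with p = 0.658). For Tsn and Disc1, r was -0.32 among poly(I:C) arrays (exact permutation p = 0.561, rho -0.03 with p = 1) and 0.42 among controls (exact permutation p = 0.479, rho 0.43 with p = 0.419).

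The closest relation of the 12 was that of the second Tsnax probe set and Tsn among poly(I:C) arrays, with r = 0.83 and rho = 0.83 (exact permutation p = 0.0222 and 0.0583, adjusted 0.267 and 0.700). In controls the same pair gave r = -0.27 (exact permutation p = 0.664), and without the 2 farthest arrays the poly(I:C) value was 0.38. With 6 arrays in a group, a relation of moderate size would not be detectable.

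The genes whose levels followed each member most closely over the 12 arrays, once group means were taken off, are given as a description. For the first Tsnax probe set these were Smim7 (r = 0.92), Ociad2 (0.91), Coq2 (0.90), Dr1 (0.89) and Tspan5 (0.88), out of 10290 candidate probe sets. For Tsn they were Atg14 and Tm9sf2 (0.96 each), Naa50 (0.96), Rc3h1 (0.95) and Psat1 (0.95). For Disc1 they were Cyb561a3 (0.81), Zbtb14 (0.78), Pfkfb3 and Pacrgl (0.77 each) and Ube2d3 (0.75). Each list was picked as the highest r among many candidates over 12 arrays, so high values can arise by chance. Whether any list exceeds chance was not tested. Tsn read 6.74 in control 1 and 6.72 in control 4, far below the other controls. How far its list rests on these arrays was not tested. Set against all 21217 other probe sets, the second Tsnax probe set came at rank 3007 for likeness to the first, Tsn at rank 6265 with r = 0.21, and Disc1 at rank 9645 with r = 0.06.

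Tsnax and Disc1 lie next to each other with 0 genes between them in the RefSeq order of chromosome 8, which raised the question whether the surrounding genes differed too. Of the 10 nearest genes with a probe set of their own, 5 on each side, 4 had higher and 6 lower values after poly(I:C) and 0 passed the adjusted threshold (limma; 2 had an unadjusted p under 0.05, against 14.4% of all probe sets). Groups did not overlap for 0 of the 10, against 1.13% of all probe sets in either direction.

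On the Tsnax side, Egln1, the prolyl hydroxylase that marks hypoxia-inducible factor for degradation, had a log2 difference of -0.02. Sprtn, a protease that clears proteins crosslinked to DNA, was at -0.05, the exocyst subunit gene Exoc8 at 0.03, and Gnpat, which starts plasmalogen synthesis, at -0.02. Trim67, a brain ubiquitin ligase gene, was at -0.12 with 5.70 ± 0.06 in poly(I:C) offspring and 5.82 ± 0.10 in controls (limma adjusted p = 0.278). On the Disc1 side, the Rap GTPase-activating protein gene Sipa1l2 was at 0.10, the microtubule protein gene Map10 at -0.04, Ntpcr at 0.03 and the kinase gene Map3k21 at -0.04. Pcnx2, a pecanex family gene, was at 0.18 with 7.55 ± 0.12 in poly(I:C) offspring and 7.37 ± 0.18 in controls (limma adjusted p = 0.325).

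**Figure D3:**
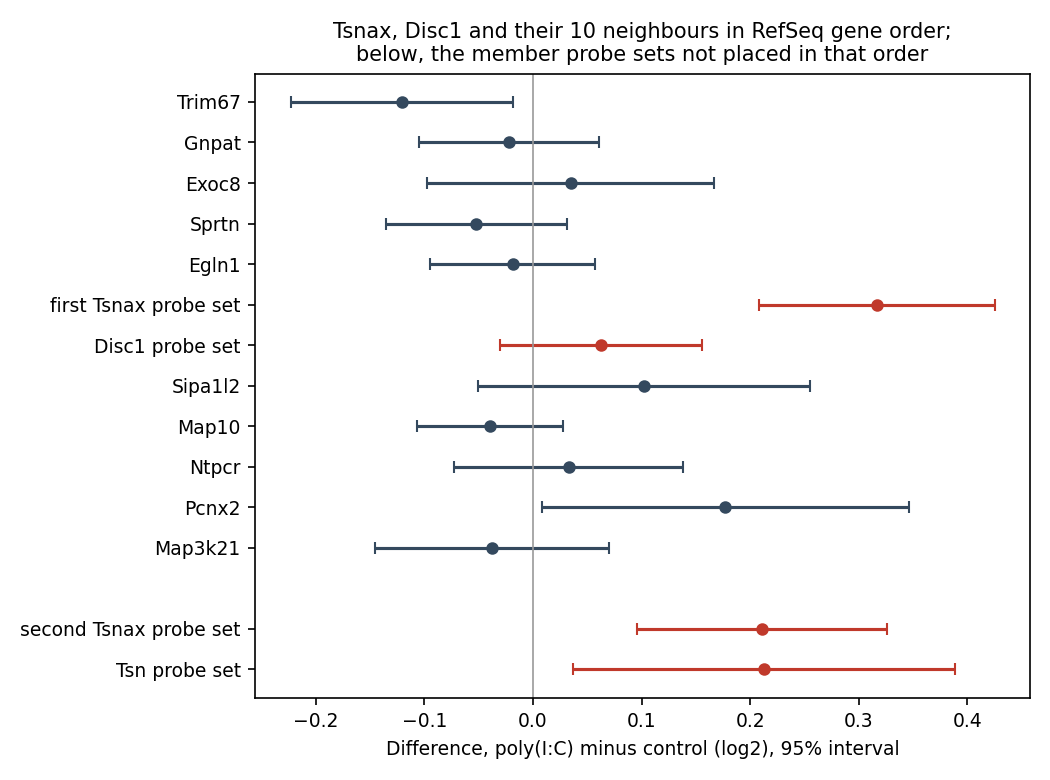
Log2 difference, poly(I:C) minus control, with the 95% interval of the limma fit, for Tsnax, Disc1 and 10 neighbouring genes in RefSeq order (members red, neighbours blue), and below them the other member probe sets. The first Tsnax probe set lies at 0.32 between Egln1 at -0.02 and Disc1 at 0.06.

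The wider machinery that translin and Trax work with was read from 4 lists holding 55 different measured genes. Of these, 30 had higher and 25 lower values after poly(I:C), and 0 passed the adjusted threshold (limma, lowest adjusted p = 0.104). An unadjusted p under 0.05 was reached by 9 of the 55 (16.4%), close to the 14.4% of all probe sets.

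Small RNA silencing genes, the setting of C3PO in animal cells, gave 8 higher and 7 lower values among 15, with a median difference of 0.01 against 0.002 over all probe sets. Ago2, the slicing Argonaute, was at -0.004, Dicer1, which cuts small RNA precursors, at -0.02, its partner Tarbp2 at -0.02, and Drosha, which makes the first cut in microRNA processing, at 0.09. Of 16 transfer RNA maturation genes, 7 were higher and 9 lower, with a median of -0.004. Among them Elac2, which trims the 3′ end, was at 0.08, and the RNase P subunit genes Pop1 and Rpp30 were at 0.05 and -0.01. Tsen54, a subunit of the enzyme that splices transfer RNAs, was the 1 gene of the 55 whose groups did not overlap (1.82%, near the 1.13% of all probe sets), with a log2 difference of 0.14 (limma adjusted p = 0.104), and is named after its values were seen.

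Of the 4 measured genes for reported Trax partners, 2 were higher and 2 lower, with a median of 0.005. The phospholipase gene Plcb1 was at -0.05, C1d, a nuclear exosome cofactor, at -0.04, the kinase gene Gsk3b at 0.10 and the DNA damage kinase gene Atm at 0.05. Adora2a, the adenosine receptor gene of striatal neurons, had no probe set with 1 symbol. Of 21 measured genes for reported Disc1 partners, 14 were higher and 7 lower, with a median of 0.05. Ndel1 and Pafah1b1, which regulate dynein, were at 0.11 and 0.05. Pde4b, which breaks down cyclic AMP, was at 0.04, and Fez1, which acts in axon growth, at -0.11. Nde1, a dynein regulator of the same list, was the lowest of it at -0.24 (limma adjusted p = 0.132), and is named after its values were seen. Of these 21, 0 passed over all genes (limma, 3 with an unadjusted p under 0.05).

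The dissected tissue carried medium spiny neuron genes at high values in every array, with a list mean from 8.98 to 9.38 in poly(I:C) offspring and from 8.72 to 9.28 in controls (11 measured genes, among them Drd1 and Drd2). Genes of cortex and choroid plexus, tissues around the accumbens, varied between arrays alongside the Tsnax difference. The mean of 8 cortical neuron genes ran from 5.83 to 6.65 in poly(I:C) offspring and from 5.32 to 6.48 in controls, with 7 of 8 higher in value. For 10 genes of choroid plexus and ependyma the mean ran from 4.77 to 4.99 in poly(I:C) offspring and from 4.90 to 6.46 in controls, with 10 of 10 lower in value. Controls 4 and 6, the lowest on the first Tsnax probe set, were the highest on these genes, at 5.99 and 6.46. The mean of 8 genes of septum, pallidum and diencephalon ran from 5.59 to 6.27 in poly(I:C) offspring and from 5.65 to 6.29 in controls, with 4 higher and 4 lower in value. The mean of 10 oligodendrocyte genes ran from 7.63 to 7.78 in poly(I:C) offspring and from 7.77 to 8.37 in controls, with 10 of 10 lower in value and 1 called (Mobp, where 0.033% of all probe sets were called lower).

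Within groups, the first Tsnax probe set followed the cortical mean with r = 0.68 among poly(I:C) arrays (exact permutation p = 0.147, rho 0.71 with p = 0.136) and r = 0.74 among controls (exact permutation p = 0.0944, rho 0.71 with p = 0.136). Without the 2 arrays farthest from the median of the cortical mean, these r were 0.95 and 0.29. The choroid plexus mean spanned only 4.77 to 4.99 among poly(I:C) arrays, a narrow range at a low level. The first Tsnax probe set ran opposite to it there with r = -0.68 (exact permutation p = 0.138, rho -0.77 with p = 0.103). Among controls r was -0.81 (exact permutation p = 0.0625, rho -0.89 with p = 0.0333). Without the 2 farthest arrays these r were -0.79 and -0.24. In controls the arrays left out were controls 4 and 6, and r over the 4 arrays left in a group is imprecise. Over all 64 relations between member probe sets and marker means, 0 passed after adjustment (lowest adjusted exact permutation p = 0.444). With 6 arrays in a group, the smallest possible exact permutation p is too large for a single relation to pass over 64. That outcome therefore decides nothing about any single relation. An unadjusted p under 0.05 was reached by 5 of the 64, where chance gives about 1 in 20 and the relations share arrays and lists.

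Of those 5, named after their values were seen, 2 joined Tsn to the mean of 10 endothelial and pericyte genes, with r = 0.82 among poly(I:C) arrays (exact permutation p = 0.0486, rho 0.89 with p = 0.0333) and r = 0.97 among controls (exact permutation p = 0.00694, rho 0.94 with p = 0.0167). Without the 2 farthest arrays these r were 0.93 and 0.57. Controls 1 and 4, the low arrays of Tsn, had the lowest means of these genes among controls, 6.68 and 6.64. The list ran from 6.68 to 6.80 in poly(I:C) offspring and from 6.64 to 6.80 in controls, and its part in the Tsn difference was not tested. The second Tsnax probe set followed the same list among poly(I:C) arrays with r = 0.88 (exact permutation p = 0.0236, rho 0.89 with p = 0.0333, 0.84 without the 2 farthest arrays), against r = -0.20 among controls (exact permutation p = 0.776). It ran opposite to the choroid plexus mean among controls with r = -0.86 (exact permutation p = 0.0194, rho -0.83 with p = 0.0583). Without controls 4 and 6 this r was -0.14. Disc1 followed the microglial mean among controls with r = 0.75 (exact permutation p = 0.0403, rho 0.71 with p = 0.136), which was 0.17 without the 2 farthest arrays.

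With 3 marker means (cortex, septum with pallidum and diencephalon, choroid plexus with ependyma) entered as covariates, the first Tsnax probe set had a log2 difference of 0.20 with a 95% interval from 0.08 to 0.32 (limma adjusted p = 0.436), and the second 0.12 with an interval from -0.03 to 0.26. With the oligodendrocyte mean as the covariate they had 0.24 (95% interval 0.07 to 0.40) and 0.16 (-0.02 to 0.34). Tsn had 0.41 (0.17 to 0.65, limma adjusted p = 0.218) against 0.21 without it. The oligodendrocyte mean reached at most 7.78 in poly(I:C) offspring and was at least 7.77 in controls. It thus nearly separates the groups, and this fit can hardly tell exposure and covariate apart. The fit with 3 marker means has a like limit. Its choroid plexus mean reached at most 4.99 in poly(I:C) offspring, and every control but control 1, at 4.90, lay above that.

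**Figure D4:**
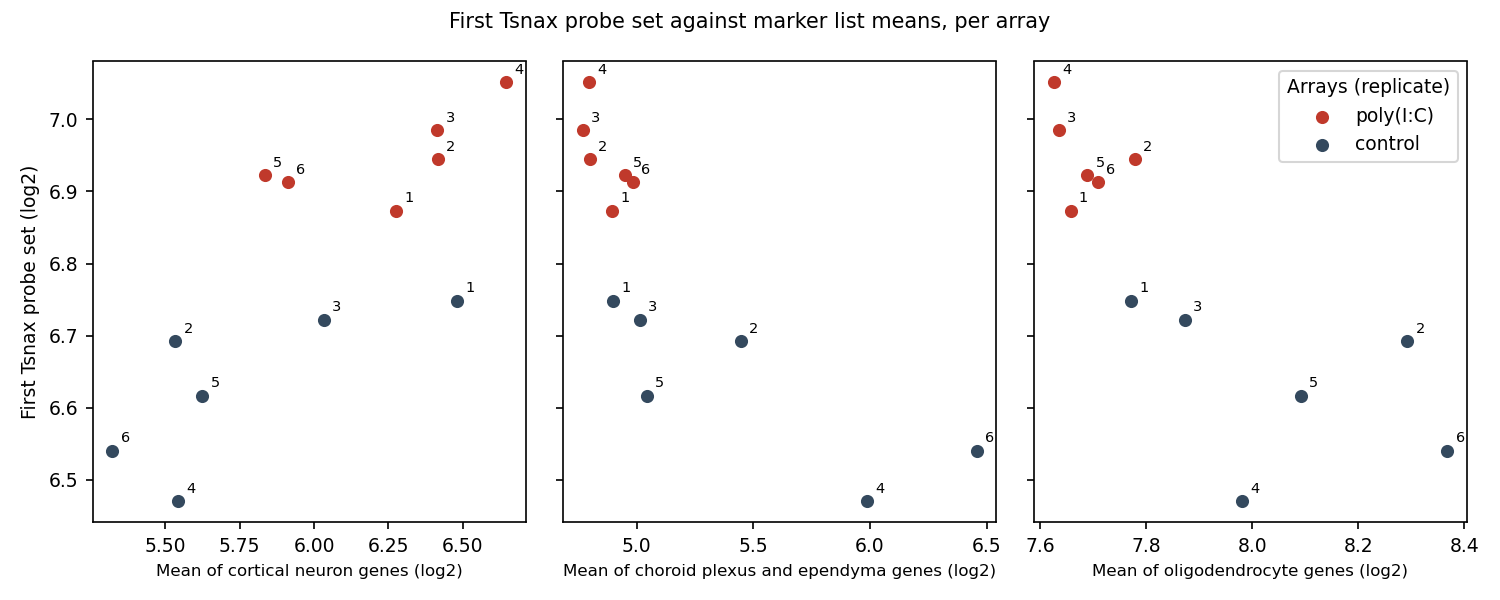
The first Tsnax probe set (log2) against the mean log2 level of cortical, choroid plexus and ependymal, and oligodendrocyte genes, 1 point per array with its replicate number (poly(I:C) red, control blue). Controls 4 and 6 combine the lowest Tsnax values with the highest choroid plexus means, 5.99 and 6.46.

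The direction for Tsnax was the same in all settings tried, but the call was not. Over 24 alternatives, the log2 difference of the first Tsnax probe set ran from 0.20 to 0.34, and it passed the adjusted threshold in 9 of them. It passed in 4 of the 12 fits that left out 1 array, those without control 1 or 3 and those without array 1 or 6 of the poly(I:C) group, and the adjusted p of the 12 ran from 0.0272 to 0.134. The unadjusted p of the first Tsnax probe set was under 0.05 in all 24 alternatives (limma), but Tsnax was selected on this difference. The second Tsnax probe set, Tsn and Disc1 passed in 0 of their 23, 23 and 22 alternatives (limma), with an unadjusted p under 0.05 in 21, 18 and 0 of them. Their log2 differences ran from 0.12 to 0.24, from 0.15 to 0.41 and from 0.04 to 0.09.

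**Figure D5:**
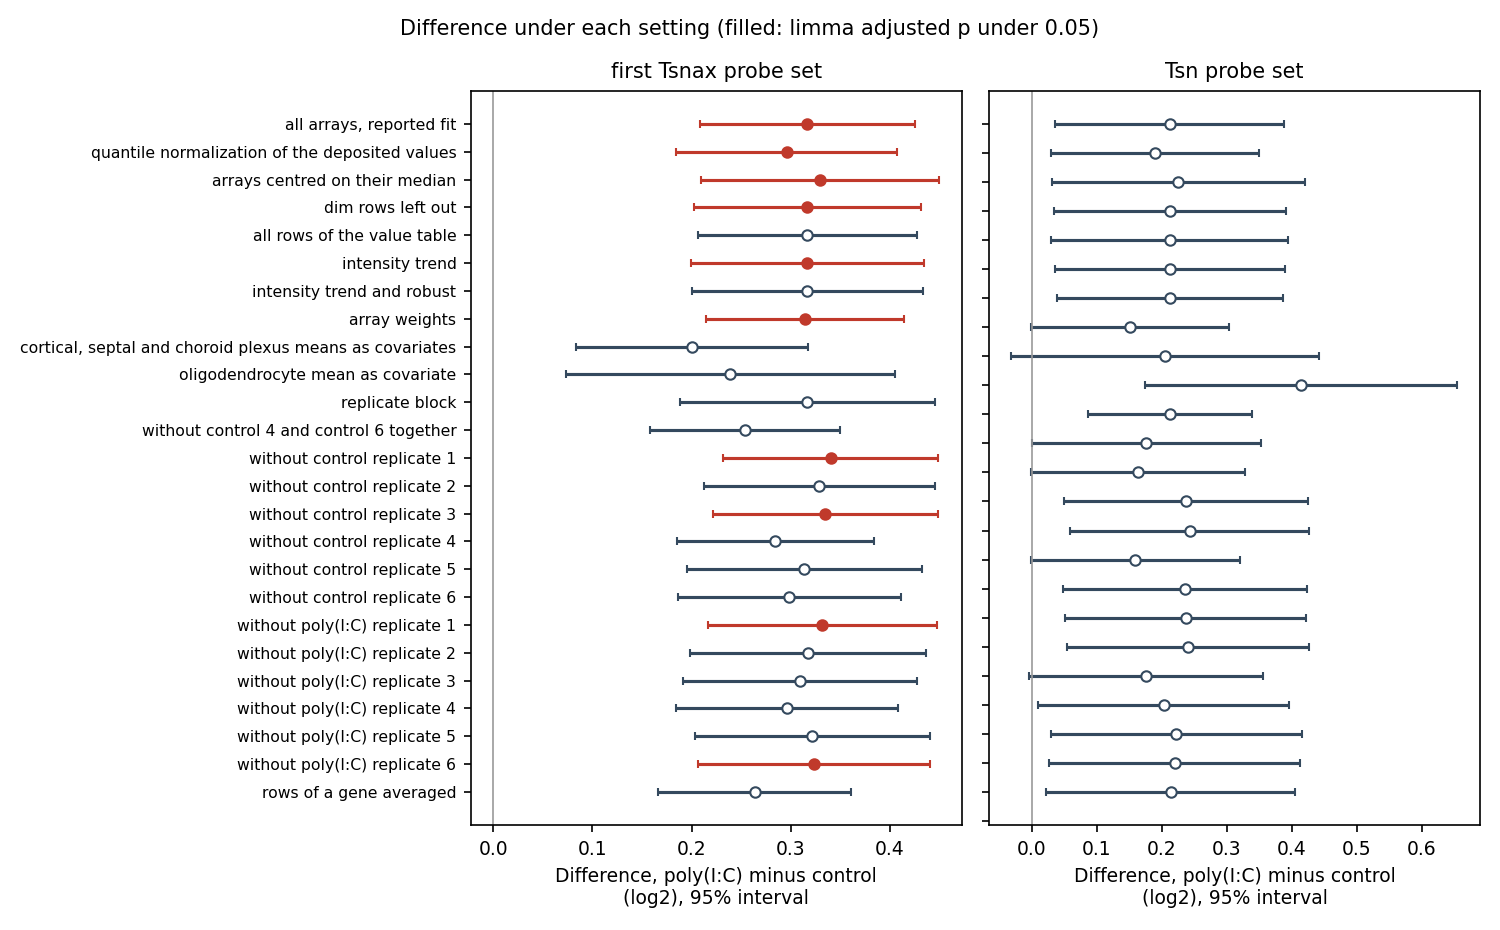
Log2 difference, poly(I:C) minus control, of the first Tsnax probe set (left) and Tsn (right) with the 95% interval under each setting, filled red where the limma adjusted p is under 0.05. The left-hand values stay between 0.20 and 0.34 and are filled in the reported fit and 9 of the 24 alternatives, and no Tsn value is filled.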

How the data were processed

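RNA from the nucleus accumbens was hybridised to Mouse Gene 1.1 ST arrays, 1 per offspring. The authors deposited 1 log2 value per probe set and array, made with RMA and Partek 6.6 per the submitters' processing notes. The sources used here give no RMA settings, genome build, litter, sex or strip. The values ran from 1.86 to 12.29. The number of arrays limits the precision. Probe sets were named from the platform annotation, with 21218 carrying 1 gene symbol, 1881 several and 12457 none listed. Gene identifiers were matched to RefSeq for 21185 of the 21218, and 0 symbols changed.

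Every probe set with 1 symbol was fitted with limma 3.58.1 in R 4.3.3 (lmFit, eBayes, group as the only term), two-sided, with Benjamini-Hochberg adjustment over all 21218 and a threshold of 0.05. The fit was tested on simulated data. Correlations used exact permutation over all pairings in Python 3.11.15. Samples were grouped by title. For lists, the probe set with the highest mean stood for a gene. Named genes were every member probe set, the first 4 of each pathway list, those of the first 3 of each marker list that bear on a result, 5 neighbours on each side, and the 5 genes most like each member. The members and lists were chosen with earlier results of these data known. The labels do not say whether same-numbered arrays are paired. With group means taken off, same-numbered arrays correlated above 0.1 in 1 of 6 pairs. That cannot exclude a shared litter, day or strip, and the reported fit used no block. Alternatives covered normalization, filters, the variance prior, weights, covariates, a block and left-out arrays.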

Additional observations from a re-analysis of the deposited data

Results flagged for a closer look

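Of 146 groups of 6 arrays checked, 6 held an array far from the others (4.11%), where chance gives about 1 in 20. Among the members these were control 6 on the second Tsnax probe set, at 5.99 with the nearest control at 6.12, and control 5 on Disc1, at 5.00 with the nearest control at 4.88. Among the neighbouring genes they were a poly(I:C) array on Sipa1l2 at 5.79 with the nearest at 6.07, a control array on Map3k21 at 3.70 with the nearest at 3.93, and a control array on Egln1 at 7.26 with the nearest at 7.21. The last was a poly(I:C) array on the choroid plexus gene Ttr, at 6.80 with the nearest at 5.51.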

How the results depend on the processing

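The first Tsnax probe set lost its call with all probe sets of the table tested (log2 difference 0.32, limma adjusted p = 0.0919), with a robust intensity trend (0.32, 0.0615), with the marker means of cortex, septum and choroid plexus as covariates (0.20, 0.436), with the oligodendrocyte mean as covariate (0.24, 0.227), with the replicate number as a block (0.32, 0.128), without controls 4 and 6 together (0.25, 0.261) and with the Tsnax probe sets averaged, an alternative added after seeing the data (0.26, 0.0572). With 1 array left out it ran from 0.28 to 0.34. The second Tsnax probe set, Tsn and Disc1 kept their direction and stayed short of the threshold throughout. The cause was not tested.

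The number of probe sets past the threshold was 13 in the reported fit, 38 after quantile normalization, 20 without dim probe sets, 140 with array weights, 1 with a robust intensity trend, and from 0 to 84 with 1 array left out. It was 0 with all probe sets tested, with either set of covariates, with the replicate block and without controls 4 and 6 (limma, with 4658, 1885, 3027, 2801 and 1768 at an unadjusted p under 0.05).

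Within-group correlations changed sign on few arrays, and each r without the 2 farthest arrays rests on the 4 left. Without the 2 farthest arrays, r among controls was -0.13 for the Tsnax probe sets, -0.57 for Tsnax and Tsn and -0.62 for Tsn and Disc1. Among poly(I:C) arrays it was 0.52 for Tsn and Disc1. For Tsnax and Disc1 among controls the sign stayed the same, with r = -0.98 against -0.05 before. With the second Tsnax probe set in place of the first, r among controls was -0.27 with Tsn and 0.31 with Disc1. The 4 pathway lists kept 0 calls, and the 8 marker means moved by less than the spread between arrays, with all probe sets of a gene averaged. For Disc1, whose mean of 4.91 is less than the middle value of 5.47 among probe sets with 1 symbol, the fit without dim probe sets gave no value.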
